A study of Prunus persica with 20 samples.

Results

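The genes described here were nearly lost from the young fruit of both nectarines, MN and Sunraycer, and present in both peaches, TN11 and TN7. They were chosen from the measured values. A gene's count was divided by its library total and multiplied by 1000000 (CPM), and the libraries of an accession were averaged. A member had at least 2 CPM in both peaches, means in MN and in Sunraycer of at most 1/8 of the smaller peach mean, and a TN11 mean below 1.5 times the TN7 mean. The rule found 110 genes among 26811 in the table, or 0.689% of the 15963 genes with at least 2 CPM in both peaches. Of those 15963 genes, 235 met the 1/8 limit in MN and 187 in Sunraycer, and 143 met it in both. The limit on TN11 over TN7 then removed 33. The set rests in part on 1 library: without TN7 2, 55 genes met the rule. Over all genes, Sunraycer 1 and TN7 5 were the libraries least like the rest of their accession, and the calls between accessions are given with and without them.

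Fruit of *Prunus persica* was collected at fruit set, and messenger RNA was sequenced. The smooth fruits came from MN (Maravilha Nectarine Mutant), a nectarine derived by mutation from a peach and of genotype Gg, and from Sunraycer, a nectarine in commerce of genotype gg. The hairy fruits came from the peaches TN11, of genotype GG, and TN7, of genotype Gg. MN, Sunraycer and TN11 had 5 libraries each and TN7 had 4, with totals of 14890206 to 24474843 counts. Every combination of genotype and fruit surface is a single accession, so genotype, surface and the remaining background of an accession cannot be told apart. The peach from which MN derives was not analysed here. Whether replicates are separate trees is not stated, and p-values cover only variation among these libraries, which could be technical. The labelled tissue could not be checked against marker genes, because the gene IDs carry no names here.

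Peach fuzz consists of trichomes, hairs that grow out from single cells of the fruit epidermis, and nectarines lack them. The G locus decides between fuzzy and smooth fruit through a MYB transcription factor gene, PpMYB25, and the nectarine allele is disrupted by an inserted transposable element. Hair growth draws on genes of the cell wall, the cuticle and its waxes, and defence chemistry. No name or product is paired with the gene IDs in the files used here (0 IDs matched the reference table of gene names), so the members are given by ID, and no role is assigned to any of them. No gene lists by product could be counted for the same reason.

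PpMYB25 itself (Prupe.5G196100.v2.1) was not a member. Its MN mean was 19.4% and its Sunraycer mean 13.0% of the smaller peach mean, both above the ceiling of 12.5%, and TN11 was 2.59 times TN7. It had 3.41 ± 0.958 CPM in MN, 2.29 ± 1.61 in Sunraycer, 45.4 ± 9.39 in TN11 and 17.6 ± 2.5 in TN7 (SD, n = 5, 5, 5 and 4).

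In the nectarines the 110 genes together took a very small part of the counts. Their share was 0.0298% ± 0.00290 in MN and 0.0234% ± 0.00263 in Sunraycer, against 0.886% ± 0.223 in TN11 and 0.709% ± 0.240 in TN7 (SD over 5, 5, 5 and 4 libraries). In whole-fruit RNA, fewer cells of a type and less RNA per cell cannot be told apart. The mean of the 2 peach means ran over the members from 2.16 to 513 CPM, with a median of 27.9 against 28.6 over all genes at 2 CPM or more in both peaches. It was at least 100 CPM for 24 members (21.8%, against 14.8% of all those genes) and under 10 CPM for 33. The same rule with nectarines and peaches exchanged, and with no limit on the ratio within a pair, found 9 genes among 15237, where 143 were found in the direction described here.

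All 10 nectarine libraries lay below all 9 peach libraries for 109 of the 110 members. The rule itself sets these groups apart, and among all genes at 2 CPM or more in both peaches the share was 3.74%. The exception, Prupe.8G237900.v2.1, was at 0 in every MN library and at 0.597, 0.163, 0.0672, 0.353 and 0 CPM in Sunraycer 1, 2, 3, 4 and 10. Its lowest peach library, TN11 5, had 0.569 CPM, just under Sunraycer 1.

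The 10 members with the highest peach means supplied 46.2% of the members' counts in the peaches. CPM is not divided by transcript length, so the order of these levels is not an order of molecules. Prupe.1G377300.v2.1 had 16.9, 32.9, 15.2, 11.9 and 16.5 CPM in MN 1, 3, 4, 5 and 6, and 2.33, 8.01, 17.6, 10.2 and 17.2 CPM in Sunraycer 1, 2, 3, 4 and 10. In the peaches it had 825, 777, 235, 530 and 568.1 CPM in TN11 1 to 5, and 400, 737, 343 and 276 CPM in TN7 1, 2, 3 and 5. The nectarines overlapped each other and stood far below every peach library, and TN11 3 was the lowest of its accession and TN7 2 the highest of its own.

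Prupe.6G302700.v2.1 kept the highest level of any member in the nectarines. It had 56.7, 60.7, 46.6, 49.6 and 47.3 CPM in MN 1, 3, 4, 5 and 6, and 34.7, 52.4, 44.2, 39.4 and 45.1 CPM in Sunraycer 1, 2, 3, 4 and 10. The peach values were 534, 680, 320, 607 and 601 CPM in TN11 1 to 5 and 376, 745, 384 and 357 CPM in TN7 1, 2, 3 and 5. Its residual level, 11.2% of the smaller peach mean in MN and 9.28% in Sunraycer, was close to the ceiling, so the transcript was reduced and not absent.

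Prupe.6G271500.v2.1 kept far less of its peach level in the nectarines. MN 1, 3, 4, 5 and 6 had 2.91, 4.34, 3.02, 2.16 and 2.64 CPM, and Sunraycer 1, 2, 3, 4 and 10 had 0.108, 1.76, 1.81, 1.21 and 1.55 CPM. TN11 1 to 5 had 499.5, 701, 232, 506 and 541 CPM, and TN7 1, 2, 3 and 5 had 337, 619, 336 and 213 CPM. The smaller peach mean was 125-fold the MN mean and 292-fold the Sunraycer mean. Every peach library was far above every nectarine library, and TN11 3 was again lowest in TN11 and TN7 2 highest in TN7.

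The remaining members of the 10 ranged widely in what was left. Prupe.2G319700.v2.1 had 22.5 ± 4.50 CPM in MN and 27.3 ± 4.99 in Sunraycer, against 433.7 ± 139.9 in TN11 and 330.6 ± 138.6 in TN7 (SD, n = 5, 5, 5 and 4), and the libraries of the 2 nectarines overlapped. Prupe.8G128100.v2.1 kept 4.93% of the smaller peach mean in MN and 4.86% in Sunraycer. Prupe.8G216900.v2.1 kept 2.44% in MN and 1.17% in Sunraycer. Those with the least left included Prupe.1G122900.v2.1, with 1.42% in MN and 0.605% in Sunraycer, Prupe.1G362100.v2.1, with 0.632% and 0.407%, and Prupe.6G238300.v2.1, with 0.627% and 0.231%. Prupe.1G328800.v2.1 had a single count over the MN libraries and 7 over Sunraycer. Against its peach means of 213 ± 58.6 CPM in TN11 (SD, n = 5) and 239.7 ± 79.2 CPM in TN7 (SD, n = 4), that single count gives a ratio of 22580 between counts pooled over the TN11 libraries and over the MN libraries, each per library total (counting interval at 95% 4052 to 891800).

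**Figure D1:**
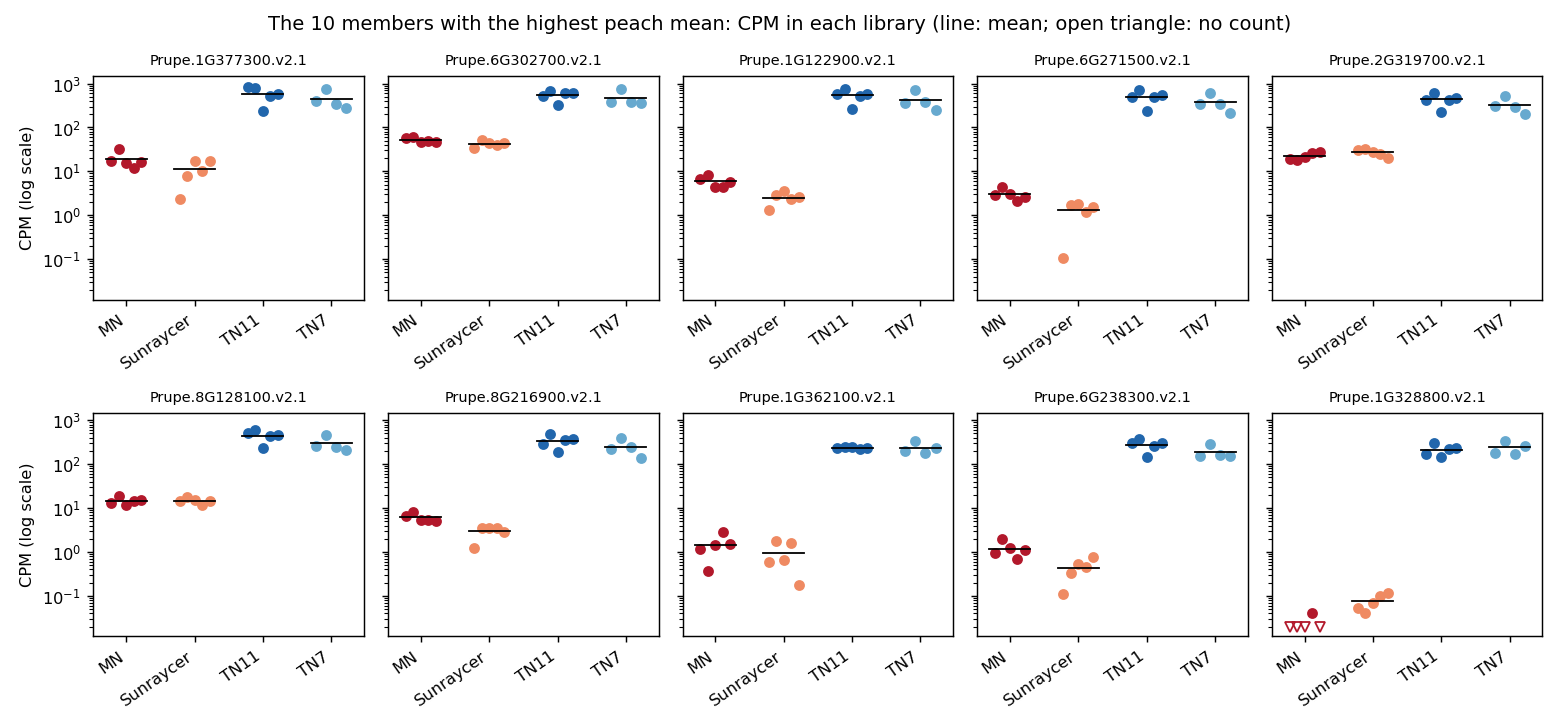
CPM on a log axis in every library for the 10 members with the highest peach means, by accession, with a line at the mean and an open triangle for a library with no count. All nectarine libraries lie below all peach libraries in each panel, from Prupe.6G302700.v2.1 with 52.2 CPM in MN to Prupe.1G328800.v2.1 with a single MN count, and TN11 3 is low and TN7 2 high in most panels.

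The members differed widely in how much was left. The MN mean had a median of 3.62% of the smaller peach mean (quartiles 0.946% and 7.29%) and the Sunraycer mean a median of 2.42% (quartiles 1.00% and 6.26%). At most 1% was left in both nectarines for 21 members and at most 3% for 42, while 18 members kept more than 6.25% in both. Among the 10 most abundant members the MN residue ran from 0.0039% in Prupe.1G328800.v2.1 to 11.2% in Prupe.6G302700.v2.1.

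**Figure D2:**
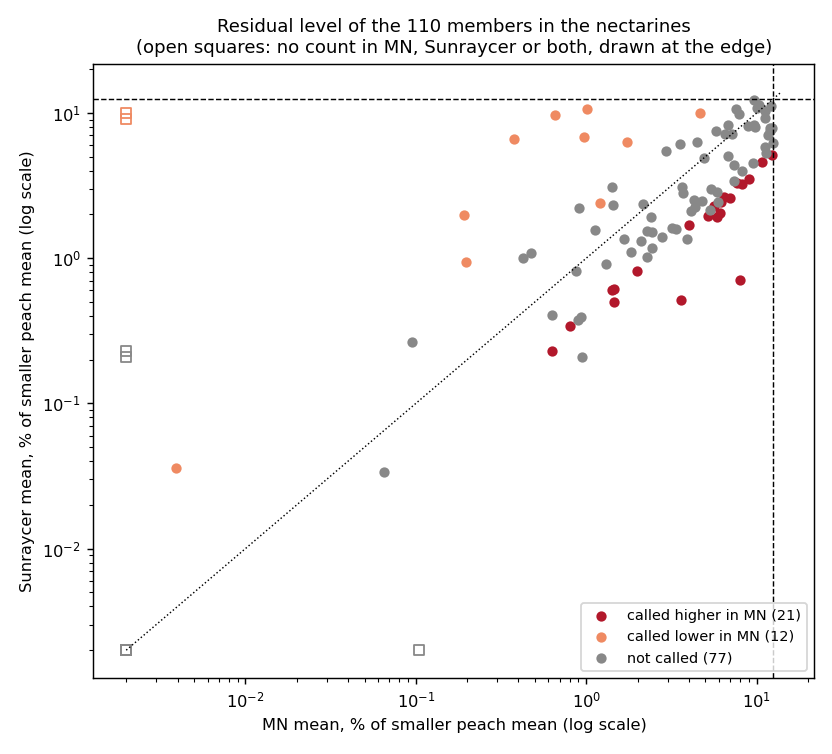
Mean level left in MN (x axis) and in Sunraycer (y axis) as a percentage of the smaller peach mean, both on log axes, for the 110 members, with the ceiling of 12.5% dashed and equality dotted. Open squares at the edge have no count in MN, in Sunraycer or in both; the points spread over more than 3 powers of 10, and more of the called ones lie below the dotted line (21 higher in MN) than above it (12 lower in MN).

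No count in any of the 10 nectarine libraries was found for 6 members, and a further 4 had none in MN alone and 1 none in Sunraycer alone. Prupe.3G210300.v2.1 was the most abundant of the 6, at 0 counts in every MN and every Sunraycer library, against 89.7, 97.9, 86.3, 93.7 and 121.5 CPM in TN11 1 to 5 and 97.8, 110.2, 75.6 and 105.3 CPM in TN7 1, 2, 3 and 5. It was at least 3401-fold lower in MN and at least 3057-fold lower in Sunraycer, with counts pooled over libraries and against a floor of 3 counts over the libraries of the accession. Floors and intervals cover counting error only. The peach libraries were close to each other for this gene, with coefficients of variation of 14.2% in TN11 and 15.8% in TN7.

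Prupe.2G245800.v2.1 was likewise at 0 counts in the nectarines and had 29.3, 44.4, 16.6, 32.8 and 35.2 CPM in TN11 1 to 5 and 17.5, 39.7, 16.7 and 18.99 CPM in TN7 1, 2, 3 and 5. It was at least 811-fold lower in MN and at least 729-fold lower in Sunraycer. The other 4, Prupe.3G168700.v2.1, Prupe.6G099000.v2.1, Prupe.5G050600.v2.1 and Prupe.6G176500.v2.1, had peach means of 2.396 to 4.21 CPM. For these low genes the counts show only losses of at least 75.1-fold to 122-fold, so how complete the loss was is limited by depth. A value of 0 shows that no read was counted for a gene, and the reason was not tested.

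Within 3 genes of each of these 6 lay at least 1 gene with counts in both nectarines, although several close neighbours had no count in any accession. Beside Prupe.2G245800.v2.1, Prupe.2G245700.v2.1 had 44.4 CPM in MN and 24.9 in Sunraycer, against 40.0 in TN11 and 61.4 in TN7, and Prupe.2G245900.v2.1 had 10.8 and 8.38 CPM in MN and Sunraycer, against 13.2 and 15.8 in TN11 and TN7. Beside Prupe.5G050600.v2.1, Prupe.5G050700.v2.1 had 304 CPM in MN and 458 in Sunraycer, against 333 in TN11 and 362 in TN7. Beside Prupe.3G210300.v2.1, Prupe.3G210200.v2.1 was low in every accession, with 0.594 CPM in MN, 0.0816 in Sunraycer, 0.516 in TN11 and 0.644 in TN7. The gene beyond it, Prupe.3G210100.v2.1, had 68.3 CPM in MN and 39.4 in Sunraycer, against 57.2 in TN11 and 70.7 in TN7. The next gene on the other side of Prupe.3G210300.v2.1, Prupe.3G210400.v2.1, was itself a member. It had 11 counts over the MN libraries and 4 over Sunraycer, against 17.5 ± 3.40 CPM in TN11 (SD, n = 5) and 11.9 ± 3.36 CPM in TN7 (SD, n = 4).

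Within the peaches the members moved together from library to library. The rule set no limit on single libraries, but its limit on TN11 over TN7 favours genes high in TN7 2 or low in TN11 3. Without TN7 2, 49 members went past that limit, and without TN11 3, 27 did. How much of the pattern comes from this choice of genes was not tested. In TN7 2, 101 of 110 members were at or above their TN7 mean, with a median of 1.43 times that mean, where 49.8% of all genes at 2 CPM or more in both peaches were at or above theirs (median 0.999). In TN11 3 only 10 members reached their TN11 mean (median 0.691 times), where 39.4% of all those genes did (median 0.967). TN11 2 and TN11 5 were on the high side, with 88 and 92 members at or above the mean (80% and 83.6%), where 47.4% and 57.0% of all those genes were. The highest TN7 value was in TN7 2 for 90 members and the lowest TN11 value in TN11 3 for 89, where this was so for 29.8% and 28.2% of all those genes, and both held for 82 members. The number 5 library of TN7, the one least like the rest of its accession over all genes, gave the lowest TN7 value of 60 members, and of 40.1% of all those genes, whose median there was 0.932 times the TN7 mean.

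The limit on TN11 over TN7 used these same libraries. The 33 genes removed by that limit moved in the same way, with 78.8% at or above the mean in TN7 2 and 12.1% in TN11 3. The coefficient of variation of the members had a median of 24.8% in TN11 and 34.0% in TN7, against 13.3% and 16.5% for all genes at 2 CPM or more in both peaches. PpMYB25 was lowest in TN11 2 and in TN7 2, the libraries that held the highest value of most members (60 and 90). It had 58.9, 33.5, 41.1, 44.8 and 48.8 CPM in TN11 1 to 5, and 19.1, 14.6, 20.1 and 16.5 CPM in TN7 1, 2, 3 and 5. These are 5 and 4 libraries, too few for a correlation.

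For 13 members TN7 2 was not the highest TN7 library and TN11 3 not the lowest TN11 library, which does not mean that they moved the other way. Prupe.1G361900.v2.1 had 66.0, 82.9, 69.8, 82.9 and 97.5 CPM in TN11 1 to 5 and 79.5, 83.4, 70.9 and 87.7 CPM in TN7 1, 2, 3 and 5, with coefficients of variation of 15.7% and 8.90%. It was still above its TN7 mean of 80.4 CPM in TN7 2 and below its TN11 mean of 79.8 CPM in TN11 3. Prupe.1G362100.v2.1, 2 IDs further along chromosome 1, shared the high value in TN7 2 but not the low one in TN11 3. It had 230, 245, 241, 217 and 239 CPM in TN11 1 to 5, a coefficient of variation of 4.75%, and 202, 332, 182 and 239 CPM in TN7 1, 2, 3 and 5, one of 27.8%. By comparison, Prupe.1G377300.v2.1 varied by 40.0% in TN11 and 46.8% in TN7.

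**Figure D3:**
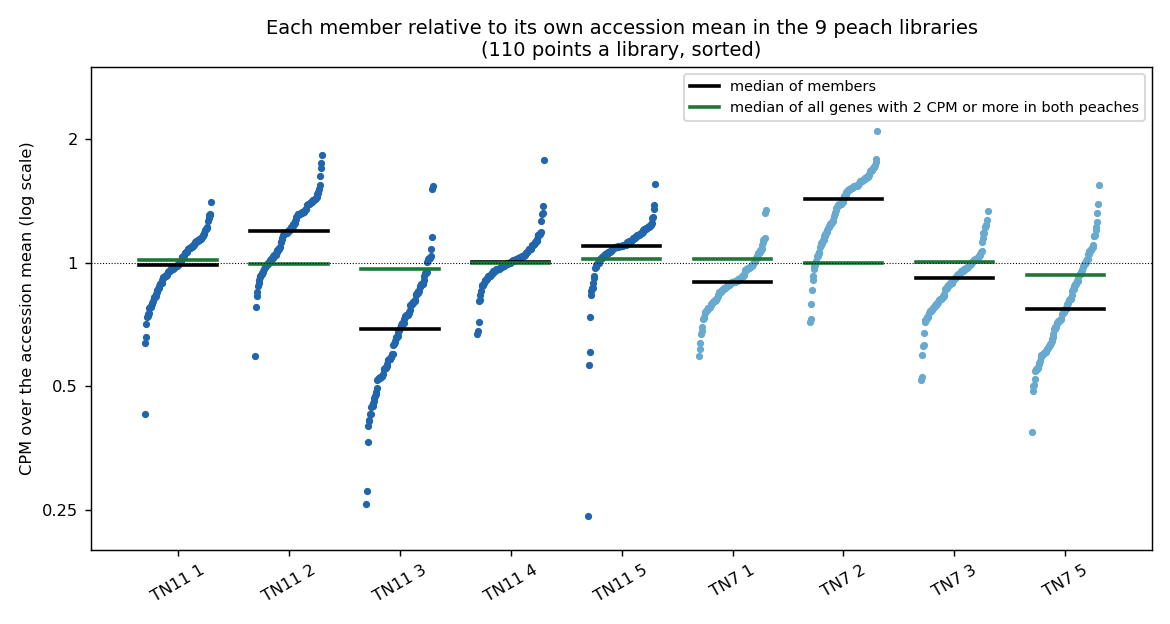
Each member's CPM over the mean of its own accession (log axis) in the 9 peach libraries, with the median of the members in black and that of all 15963 genes with 2 CPM or more in both peaches in green. The black line stands at 1.43 in TN7 2 and at 0.691 in TN11 3, and the green lines stay between 0.932 and 1.02.

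The members were slightly higher in TN11 than in TN7, within the limit the rule set. The ratio of TN11 to TN7 means had a median of 1.26 (quartiles 1.05 and 1.38), and 86 members (78.2%) were above 1, against 40.3% of the 15007 genes that had 2 CPM or more in both peaches and passed the same limit. The libraries of TN11 and TN7 overlapped for 101 members. All TN11 libraries were above all TN7 libraries for 5, where 2.06% of those 15007 genes were so, and all were below for 4, where 7.18% were so. The rule used this ratio, and nothing is tested on it.

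Membership depended on TN7 2, mostly through that limit. Without TN7 2 the median ratio of TN11 to TN7 was 1.46, and 55 genes satisfied the rule, all of them among the 110. Without TN11 3 the ratio was 1.37 and 83 genes satisfied it, and without both libraries the ratio was 1.56 and the count 46. The loss in the nectarines depended on them much less. Of the 110 members, 97 still met the 2 CPM and 1/8 limits without TN7 2, and all 110 met them without TN11 3.

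Members just inside each limit and genes just outside it had close values. The members nearest the 1/8 limit, Prupe.6G360900.v2.1 and Prupe.3G049400.v2.1, had 12.4% and 12.3% of the smaller peach mean in the higher nectarine, and the nearest genes outside, Prupe.8G254300.v2.1 and Prupe.8G004100.v2.1, had 12.8% and 13.6%. The smaller peach mean was 2.14 CPM in Prupe.8G184500.v2.1 and 2.19 in Prupe.3G187900.v2.1 inside, and 1.92 in both Prupe.4G101900.v2.1 and Prupe.3G016300.v2.1 outside. The ratio of TN11 to TN7 was 1.499 in Prupe.4G064100.v2.1 and 1.498 in Prupe.8G128100.v2.1 inside, and 1.52 in Prupe.7G265400.v2.1 and Prupe.7G173200.v2.1 outside. Prupe.7G173200.v2.1 had a single count over the MN libraries and none in Sunraycer, and was kept out by its ratio between the peaches alone.

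MN and Sunraycer were compared with each other, which the rule did not do, to ask whether the mutant and the gg nectarine kept the same residue of these genes. Most members did not pass the test, which does not show that their residues were equal. Of the 110, 21 were higher in MN, 12 were lower and 77 were not called in edgeR's quasi-likelihood test, fitted over 19360 genes and all 19 libraries, with a Benjamini-Hochberg adjusted p below 0.05 and at least 2-fold as the call. Among all tested genes 25.2% were called, 8.41% higher and 16.8% lower in MN. The members' share was 30%, 19.1% higher and 10.9% lower. All 110 passed the filter on low counts over the 19 libraries. With that filter set on the nectarine libraries alone, an alternative chosen after seeing the data, 64 members passed and 46 did not, and 10 of the 33 calls were of genes among those 46. The fit with this filter called 23 members, 19 higher and 4 lower in MN, or 35.9% of the 64, against 24.2% of the 18352 genes that passed it.

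For the 6 members at 0 in both nectarines there was nothing to compare. Over the other 104 the median difference was 0.48 on the log2 scale (quartiles −0.56 and 1.02), with 65 higher and 39 lower in MN, against a median of 0.04 (quartiles −0.59 and 0.52) over all tested genes. The members' median was 0.34 without Sunraycer 1, 0.63 with the replicate number as a block and 0.19 with a score of the spread within accessions as a covariate, described next. The scaling matters here: with CPM from library totals, without the TMM factors of the fit, the median of all tested genes was 0.20, and 70 of the 99 members with counts in both nectarines were higher in MN.

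Single libraries and the position of the accessions moved with this result. Sunraycer 1, the library least like the rest of its accession, held the lowest Sunraycer value of 64 members, alone or tied at 0. This was so for 48.0% of all genes with 2 CPM or more in both peaches, with ties counted in the same way. The 64 include the 7 members with no count in any Sunraycer library, so fewer were lowest there alone. The members in Sunraycer 1 had a median of 0.551 times the Sunraycer mean, against 0.881 over all those genes. Without it 22 members were called, 11 higher and 11 lower in MN, which is 20% of the members and also 20% of all genes tested in that fit. The members' share was then no longer above that of all genes. Without Sunraycer 1 and TN7 5 together there were 21, 11 higher and 10 lower, or 19.1% against 20.4% of all genes. The main direction of spread between libraries of one accession gave scores of −0.636 to −0.109 in MN and 0.140 to 1.00 in Sunraycer, which do not overlap. With that score as a covariate 3 members were called (2.73%, against 4.35% of all genes), Prupe.2G107200.v2.1 higher and Prupe.4G236800.v2.1 and Prupe.6G139000.v2.1 lower in MN. Of these, Prupe.4G236800.v2.1 did not pass the filter on the nectarine libraries alone and entered the test through the peach levels that the rule required. Position along that direction and the difference between the accessions cannot be told apart.

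Prupe.2G107200.v2.1 had the largest called difference in favour of MN. It had 0.890, 0.860, 0.756, 0.539 and 0.720 CPM in MN 1, 3, 4, 5 and 6, and 0.0543, 0, 0, 0.101 and 0.179 CPM in Sunraycer 1, 2, 3, 4 and 10. All 5 MN libraries lay above all 5 Sunraycer libraries (log2 3.27, SE 0.456, edgeR adjusted p = 3.951e-05). Its peach means were 13.3 ± 2.59 CPM in TN11 (SD, n = 5) and 9.45 ± 1.98 CPM in TN7 (SD, n = 4), so 7.97% was left in MN and 0.706% in Sunraycer. The Sunraycer level is 6 counts in all, and without Sunraycer 10, which held 3 of them, the difference was 3.93 on the log2 scale (2.89 to 3.93 over the libraries left out in turn).

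Prupe.3G007600.v2.1 followed, with 1.07, 1.86, 1.13, 0.497 and 0.672 CPM in MN 1, 3, 4, 5 and 6 and 0.108, 0.204, 0.336, 0.101 and 0 CPM in Sunraycer 1, 2, 3, 4 and 10. Again the libraries of the 2 nectarines did not overlap (log2 2.61, SE 0.507, edgeR adjusted p = 0.000506). With the score as a covariate its difference was 1.91 (adjusted p = 0.139).

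In the other direction, Prupe.6G139000.v2.1 had 0.178, 0, 0.331, 0.207 and 0.0480 CPM in MN 1, 3, 4, 5 and 6, against 2.12, 1.06, 0.739, 1.46 and 2.62 CPM in Sunraycer 1, 2, 3, 4 and 10. The libraries did not overlap (log2 −3.53, SE 0.494, edgeR adjusted p = 4.161e-05). It kept 1.02% of the smaller peach mean in MN and 10.6% in Sunraycer.

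Prupe.4G236800.v2.1 was at 0 in all MN libraries, against 0.108, 0.613, 0.604, 0.453 and 0 CPM in Sunraycer 1, 2, 3, 4 and 10. With 35 Sunraycer counts in all, the level in MN was at least 13.0-fold below that in Sunraycer, and Sunraycer 10 overlapped with MN at 0. For Prupe.8G237900.v2.1, whose values are given above, the bound was 8.53-fold. Of its 23 Sunraycer counts 11 came from Sunraycer 1, and leaving that library out brought the bound to 5.53-fold. Neither gene passed the filter on the nectarine libraries alone. Both entered the test through the peach levels that the rule required, so no p-value is given for them.

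**Figure D4:**
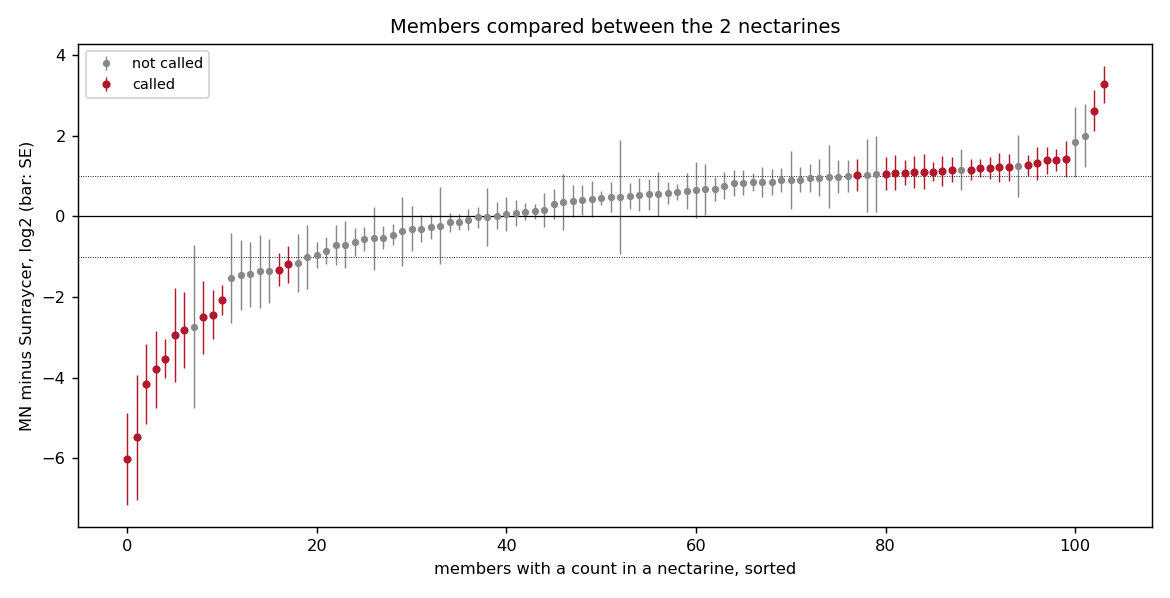
Difference MN minus Sunraycer on the log2 scale, with its standard error, for the 104 members that had a count in a nectarine, sorted, with those called in red and dotted lines at 1 and −1. Of the called members 21 lie above 0 and 12 below, and the most negative values, down to −6.02, belong to genes with no MN count, whose fitted value depends on the prior count. Of the called members, 10 did not pass the filter on the nectarine libraries alone.

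The members were spread over all 8 chromosomes, as read from the IDs, in which the figure before G gives the chromosome and the following number runs along it. Chromosome 6 held 27 members, 24.5% of them, against 13.7% of all genes with 2 CPM or more in both peaches. Chromosome 7 held 5 members, 4.55% against 10.4%. The others held 8 to 20 members each, with shares of 7.27% to 18.2% against 9.62% to 22.9%. Coordinates were not used here.

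**Figure D5:**
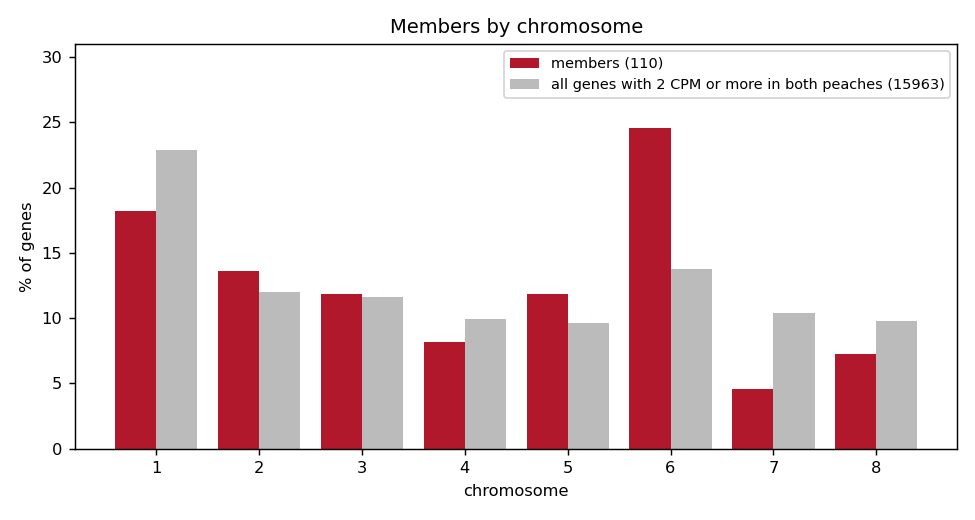
Share of the 110 members and of all 15963 genes with 2 CPM or more in both peaches on each chromosome, in percent. The bar of members is 24.5% on chromosome 6, against 13.7% for all those genes, and 4.55% on chromosome 7, against 10.4%.

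Pairs of members lying within 5 genes of each other numbered 9 and held 18 members, and in 4 of them no gene lay between. Such neighbours can be near-identical copies that share reads, which could not be checked. On chromosome 1, Prupe.1G361900.v2.1 and Prupe.1G362100.v2.1 enclosed Prupe.1G362000.v2.1, which had no count in a nectarine and 2.07 CPM in TN11 and 0.565 in TN7, under the minimum of the rule in TN7. On chromosome 2, Prupe.2G225800.v2.1 (61.9 CPM in TN11 and 44.96 in TN7) and Prupe.2G226000.v2.1 (3.66 and 3.24) enclosed Prupe.2G225900.v2.1, which was not lost, with 0.651 CPM in MN and 0.598 in Sunraycer against 0.659 in TN11 and 0.543 in TN7. Prupe.2G251500.v2.1 (6.51 CPM in TN11 and 6.20 in TN7) and Prupe.2G251900.v2.1 (60.5 and 50.7) enclosed 3 genes with at most 7 counts in any accession.

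The stretch of chromosome 6 from Prupe.6G099000.v2.1 to Prupe.6G099400.v2.1, singled out after its values were seen, had a run of lost genes. Prupe.6G099000.v2.1 was at 0 in the nectarines, against 4.13 CPM in TN11 and 2.79 in TN7. Prupe.6G099200.v2.1 had 2 counts in MN and none in Sunraycer, against 107 over TN11 and 79 over TN7. Prupe.6G099300.v2.1 had 2 counts in each nectarine, against 29.2 CPM in TN11 and 11.4 in TN7, and was kept out by its ratio of 2.57 between the peaches. Prupe.6G099400.v2.1 had 1.197 CPM in MN and 0.5035 in Sunraycer, against 108 in TN11 and 82.1 in TN7. The remaining gene, Prupe.6G099100.v2.1, was low in all 4 accessions, with 0.294 CPM in MN, 0.132 in Sunraycer, 0.385 in TN11 and 0.162 in TN7.

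The genes next to the members were called lower in the nectarines at shares close to those of all tested genes. The nearest 2 tested genes on each side of every member that were not members themselves numbered 405. For MN minus TN7, in which 10.3% of all tested genes were called, 37 of them were lower (9.14%, against 7.59% of all tested genes) and 13 higher (3.21% against 2.73%) in edgeR, with a median of −0.01 on the log2 scale against −0.02. For Sunraycer minus TN11, in which 18.3% of all tested genes were called, 39 were lower (9.63% against 8.49%) and 43 higher (10.6% against 9.85%), with a median of −0.09 against −0.05. Without TN7 5, 30 were lower (7.41% against 6.31%) and 11 higher (2.72% against 2.27%) for MN minus TN7. Without Sunraycer 1, of 403 that were tested 33 were lower (8.19% against 7.07%) and 34 higher (8.44% against 7.81%) for Sunraycer minus TN11. With the replicate number as a block, 28 were lower (6.91% against 5.66%) and 13 higher (3.21% against 2.2%) for MN minus TN7. For Sunraycer minus TN11 the block gave 45 lower (11.1% against 9.75%) and 39 higher (9.63% against 8.82%). These 2 comparisons have no library in common, but they share one fit and its estimate of the spread.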

How the data were processed

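Messenger RNA of fruit at fruit set was sequenced from 20 samples of 4 accessions, and 19 were analysed; replicate 4 of TN7 was not analysed here. Per the labels' protocols, the RNeasy Plant Mini Kit was used for RNA and the TruSeq Stranded mRNA kit for libraries. In the deposited table each gene has an estimated count, a whole number that is not normalized. The submitters' processing notes list Bowtie2 2.5.1, RSEM 1.2.31, R 4.1.1 and DESeq2, without saying what each did. Not given in the sources used here: build, strand setting, read filters and the handling of reads shared between gene copies. Levels of genes with close copies, overlapping genes and antisense genes are therefore uncertain.

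The 110 members, the comparisons and the rule for named genes were chosen with earlier results of these data known. The rule took the 10 members with the highest peach mean, up to 5 with no nectarine count, the largest called differences between MN and Sunraycer, those nearest each threshold, and 3 pairs of neighbours. Because the IDs have no names here, the called differences were cut to 2 in each direction, plus any that a count of 5 or fewer singled out. Lists by product name were planned and could not be applied. CPM values use library totals.

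Tests used edgeR 4.0.16 in R 4.3.3 (TMM, filterByExpr, glmQLFit, glmQLFTest) with one mean per accession; a standard error is the log2 difference divided by the square root of F. The fit was tested on simulated counts with 200 changed genes. It called 43% of the 2-fold and 90% of the 4-fold changes, and 4 unchanged genes. The required estimate of at least 2-fold itself limits the share of true 2-fold changes that can be called. Apart from the changed genes, simulated libraries were drawn independently around means shared by all accessions, without spread shared across genes. The real libraries had such spread, so the 4 unchanged calls do not give the error rate of the real comparisons. The changed genes were not as low in both nectarines as many members are. Same-numbered libraries of MN and TN7 deviated together (correlations 0.419 to 0.486 across genes, 3 pairs, from the data alone). Those of MN and Sunraycer were mixed (−0.324, 0.375 and −0.114 for numbers 1, 3 and 4). Those of Sunraycer and TN11 did not deviate together (−0.266 to 0.0342). Alternatives were RLE factors, no filter, a filter on nectarine libraries alone, DESeq2 1.42.0, the number as a block, a score along the spread within accessions, other settings of the rule and leaving out libraries. Python 3.11.15, SciPy 1.17.1 and matplotlib 3.10.9 were used. No libraries of an accession differed by sampling noise alone (smallest chi-square per degree of freedom 7.40).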

Additional observations from a re-analysis of the deposited data

Results flagged for a closer look

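Values that stood far from the others of their accession (Dixon's test at 95%) numbered 13 among 124 sets of values from 34 named members. The test's rate of about 1 in 20 sets cannot be set against this number. The members were chosen from these same values and moved together in the peaches, so the sets were neither unselected nor independent. A set with a single count in all is flagged whatever its library. The flags only list values to look at. TN7 2, whose high values the limit on TN11 over TN7 favours, was high in 6 of the 13 sets. It had 745 CPM of Prupe.6G302700.v2.1 (others 357 to 384), 293 CPM of Prupe.6G238300.v2.1 (152 to 165), 39.7 CPM of Prupe.2G245800.v2.1 (16.7 to 18.99), 14.7 CPM of Prupe.4G236800.v2.1 (6.37 to 7.28), 11.1 CPM of Prupe.6G291500.v2.1 (3.905 to 5.00) and 22.9 CPM of Prupe.6G139000.v2.1 (11.8 to 13.3). The same library was the highest of TN7 for 90 of the 110 members.

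Sunraycer 1 stood apart in 3 sets, low in Prupe.6G103500.v2.1 (0.0543 CPM, others 0.572 to 0.705) and high in Prupe.5G183100.v2.1 (3.09 CPM, others 0.202 to 0.302) and Prupe.3G187900.v2.1 (0.705 CPM, others 0 to 0.202). In TN11, replicate 5 was high for Prupe.3G168700.v2.1 (6.54 CPM, others 3.18 to 3.83) and replicate 3 low for Prupe.2G251500.v2.1 (4.18 CPM, others 6.97 to 7.15). In MN, replicate 3 was high for Prupe.1G377300.v2.1 (32.9 CPM, others 11.9 to 16.9), and replicate 5 held the single count of Prupe.1G328800.v2.1 (0.0415 CPM, others at 0).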

How the results depend on the processing

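Limits: membership rests on means of 4 or 5 libraries, and a member with 0 to 3 counts in a nectarine allows only a bound or a wide interval there. The number of members, 110, ranged from 55 (without TN7 2) to 123 (without TN7 5) when each library was left out, was 46 without TN7 2 and TN11 3 together, an alternative chosen after seeing the data, and was 167 with a ceiling of 1/4 and 66 with 1/16. It stayed within 1.5 times 110 with TMM-scaled CPM (100), medians (89, of which 74 were among the 110), minimums of 1 and 5 CPM (130 and 86) and no limit on TN11 over TN7 (143). Members called between MN and Sunraycer, 33, ranged from 22 (without Sunraycer 1) to 40 (without Sunraycer 3), and were 3 with the score of spread within accessions (axis score) in the fit and 21 without Sunraycer 1 and TN7 5 together, also chosen after seeing the data; the cause was not tested. They were 32 with RLE factors, 33 with DESeq2 and without the filter, 23 with the filter on nectarine libraries alone, chosen after seeing the data (19 higher, 4 lower; 4446 calls over all genes), 46 without the fold minimum and 38 with the replicate block (28 higher, 10 lower). Over all genes, the axis score gave 842 calls for MN minus Sunraycer (4884 without it) and 2265 for Sunraycer minus TN11 (3550), and dropping the fold minimum gave 11739, 8332 and, for MN minus TN7 (1999), 3960. Leaving out each library gave 3854 to 5577, 2870 to 3999 and 1582 to 2316 calls for MN minus Sunraycer, Sunraycer minus TN11 and MN minus TN7. The block gave 4987, 3596 and 1520 calls and changed no call among the members named for their difference between the nectarines. Of the 10 such members 5 have no value with the nectarine filter and 7 were no longer called with the axis score, and none changed sign in the settings that gave it a value. With the axis score only 3 members were called, 1 higher and 2 lower in MN against 21 and 12, too few to show a turn. The members' median log2 difference was then 0.19. The balance of calls did turn for Sunraycer minus TN11, which had 1907 higher and 1643 lower. There were 1708 and 1888 with the block and 904 and 1361 with the axis score.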
